A study of Mus musculus with 6 samples.

Results

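The genes described here are 42 genes of DNA replication and of the repair that accompanies it in S phase, followed across mouse liver RNA of a diet model and a toxin model. They were taken as a named list, matched to the deposited tables by gene symbol. All 42 were found among the 18444 genes listed in the 6 libraries. Of the 42, 41 were listed in SD, 40 in Oil and 41 in CCl4+JT003, and all were listed in the other 3 libraries. By role, 10 genes load or hold the replicative helicase at origins, 4 activate it, 10 belong to the polymerases, the sliding clamp and lagging-strand processing, 5 supply deoxynucleotides, 4 copy chromatin and its methylation, and 9 act in repair and the replication checkpoint.

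Before a cell divides, the origin recognition complex, with Cdc6 and Cdt1, loads the ring of Mcm2 to Mcm7 onto DNA. Cdc45 and the GINS complex then convert the ring into a running helicase, polymerases copy both strands behind it, and Fen1 and Lig1 mend the lagging strand. Many of these genes are transcribed in late G1 and S phase under the E2F factors, which the retinoblastoma family of pocket proteins holds in check. Most hepatocytes of an adult liver rest outside the cell cycle, and they enter it after injury or loss of tissue. Genes of mitosis are switched on later, in G2, through a different promoter element.

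All mice were male, C57BL/6 in the labels and C57BL/6J in the methods. The stated age is 6 to 8 weeks, which the methods give for the mice used. The diet lasted longer than that, so it is not the age at sampling in the diet model. Age at sampling is not stated for either model. Each condition was represented by 1 liver library sequenced on a BGISEQ-500. In the diet model SD is a chow control, HFD is liver of the high-fat diet, labelled as NASH (nonalcoholic steatohepatitis), and HFD+JT003 received both the diet and JT003. The study's methods give 16 weeks of high-fat diet, and describe a NASH variant with a methionine- and choline-deficient diet in the last 4 weeks. The labels do not say which of these the HFD libraries had. In the CCl4 model Oil received corn oil, CCl4 received 20% CCl4 in corn oil at 5 ml/kg every 3 days for 6 weeks, and CCl4+JT003 received CCl4 and JT003. CCl4, carbon tetrachloride, is a liver toxin that kills hepatocytes around the central vein and leads to fibrosis. JT003 is a peptide that activates both adiponectin receptors, AdipoR1 and AdipoR2, and was injected daily at 500 μg/kg for 4 weeks in the diet model and 3 weeks in the CCl4 model. The methods give 6 mice per group and a fast of 8 hours, and do not state whether a library came from 1 mouse or from a pool.

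With 1 library per condition, each test below compared 2 libraries and covered counting error only. It had no replicate check, so the spread between mice is not in any interval. Counts are the authors' expected counts, rounded, which summed to 19374255 to 20184578 per library, and log2 ratios were taken after TMM scaling within a model. A gene was called higher or lower at an adjusted p under 0.001 by a two-sided exact conditional binomial test, adjusted over all genes by Benjamini-Hochberg, together with a ratio of at least 2-fold. The defining hepatocyte markers were high in all 6 libraries, with a summed level of 81400 to 99700 CPM after TMM scaling. Summed markers of other cells differed more, and they are given after the results of each model. In whole liver, fewer cells that express a gene and less RNA of it per cell cannot be told apart.

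Promoters of 36 of the 42 genes were present in a RefSeq table of the mouse build GRCm38.p6, as 43 promoters of 300 bases, 250 before and 50 after the transcription start. The 250 bases before the start of 4 genes that were higher with CCl4 are printed here because they hold an E2F word, and those of Mcm10 and Rrm2 because they hold none. Capitals mark the E2F words.
Mcm5: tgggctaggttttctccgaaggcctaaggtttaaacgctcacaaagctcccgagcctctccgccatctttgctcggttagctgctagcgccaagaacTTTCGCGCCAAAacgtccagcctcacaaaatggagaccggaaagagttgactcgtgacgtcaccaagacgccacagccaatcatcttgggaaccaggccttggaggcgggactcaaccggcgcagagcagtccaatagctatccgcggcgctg
Mcm6: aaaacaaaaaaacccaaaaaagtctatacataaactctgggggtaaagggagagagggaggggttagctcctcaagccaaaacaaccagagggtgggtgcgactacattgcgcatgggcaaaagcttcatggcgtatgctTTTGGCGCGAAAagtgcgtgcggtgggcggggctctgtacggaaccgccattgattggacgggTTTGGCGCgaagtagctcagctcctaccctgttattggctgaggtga
Rrm1: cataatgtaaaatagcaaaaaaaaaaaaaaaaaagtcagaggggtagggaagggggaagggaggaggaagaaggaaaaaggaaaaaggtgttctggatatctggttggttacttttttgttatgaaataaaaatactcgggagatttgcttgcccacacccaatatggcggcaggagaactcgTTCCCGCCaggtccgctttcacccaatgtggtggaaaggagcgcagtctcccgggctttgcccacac
Uhrf1: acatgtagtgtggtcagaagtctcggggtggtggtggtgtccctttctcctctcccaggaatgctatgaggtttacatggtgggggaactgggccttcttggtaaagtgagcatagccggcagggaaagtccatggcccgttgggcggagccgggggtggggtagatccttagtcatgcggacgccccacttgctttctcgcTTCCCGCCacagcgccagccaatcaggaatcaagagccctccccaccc
Mcm10: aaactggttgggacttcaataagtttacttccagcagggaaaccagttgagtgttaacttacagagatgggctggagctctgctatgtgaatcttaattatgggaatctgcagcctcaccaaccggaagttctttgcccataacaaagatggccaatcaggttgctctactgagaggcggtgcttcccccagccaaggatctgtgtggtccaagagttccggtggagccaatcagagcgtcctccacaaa
Rrm2: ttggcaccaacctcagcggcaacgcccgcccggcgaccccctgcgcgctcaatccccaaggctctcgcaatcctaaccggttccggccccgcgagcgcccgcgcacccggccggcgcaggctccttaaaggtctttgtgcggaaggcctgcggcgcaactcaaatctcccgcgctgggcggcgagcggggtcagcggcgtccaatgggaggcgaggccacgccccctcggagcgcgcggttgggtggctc
The Mcm5 stretch lies at chr8:75109259-75109508 on the plus strand, Mcm6 at chr1:128359706-128359955 on the minus strand, and Rrm1 at chr7:102441445-102441694 on the plus strand. Uhrf1 lies at chr17:56303087-56303336 on the plus strand, Mcm10 at chr2:5012792-5013041 on the minus strand, and Rrm2 at chr12:24708004-24708253 on the plus strand. All are written 5′ to 3′ along the gene.

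The words searched for E2F, 5 in number, were read on both strands, as TTTGGCGC, TTTCCCGC, TTTCGCGC, TTTGCCGC and TTCCCGCC, of which TTTCCCGC and TTCCCGCC can overlap. With the base before the start counted as -1, Mcm5 held TTTCGCGC at -153 overlapping TTTGGCGC at -149, both orientations being counted. Mcm6 held the same pair at -106 and -110 and a further TTTGGCGC at -47. Rrm1 held TTCCCGCC at -67 and Uhrf1 at -48. Of the 43 promoters, 21 (48.8%) held at least 1 of the words, against 1278 of all 32851 promoters in the table (3.89%) and 1 of 20 promoters of mitosis genes (5%). The CHR word TTTGAA, which MuvB complexes bind in promoters of G2 and mitosis, was in 4 of 43 (9.3%), 17.9% of all promoters and 15 of 20 mitosis promoters (75%). CCAAT, bound by NF-Y, was in 24 of 43 (55.8%), 37.4% and 17 of 20 (85%). A matching word is not a shown binding site, and a missing one says only that these letters were not in the window.

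**Figure D1:**
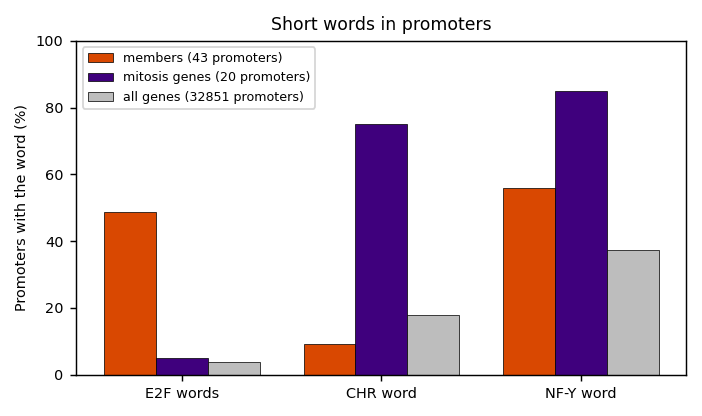
Share of promoters (vertical axis, %) holding an E2F word, the CHR word or the NF-Y word, in 43 promoters of the replication and repair genes, 20 of mitosis genes and all 32851 of the RefSeq table. The E2F words stood at 48.8% in the first set and 5% in the mitosis genes, and the CHR word at 9.3% and 75%.

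Levels per transcript length are given as the authors' FPKM. Leaving out Mcm10, the median of the other 41 genes was 0.81 FPKM in SD, 1.00 in HFD, 1.52 in HFD+JT003, 0.68 in Oil, 2.22 in CCl4 and 1.18 in CCl4+JT003. The genes thus lay low in liver in every condition, with 18 of 42 at 1 FPKM or more in Oil and 29 in CCl4. Of the 42 genes, 34 had their highest FPKM in the CCl4 library, 4 in HFD+JT003, 3 in CCl4+JT003 and 1 in HFD. SD held the lowest level of 20 genes and Oil of 14. Pcna, the sliding clamp that tethers polymerases to DNA, stood at 14.00 FPKM in SD, 16.34 in HFD, 18.31 in HFD+JT003, 15.79 in Oil, 22.00 in CCl4 and 20.02 in CCl4+JT003. Pcna was called in none of the 6 comparisons. Of its 50-base windows, 19.1% also occur in Pcna-ps2 in the GENCODE M21 annotation, so its count is uncertain. At the other end, Orc1, the largest subunit of the origin recognition complex, had 0, 1 and 1 counts in SD, HFD and HFD+JT003 and 0, 5 and 0 in Oil, CCl4 and CCl4+JT003, too few to be called.

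**Figure D2:**
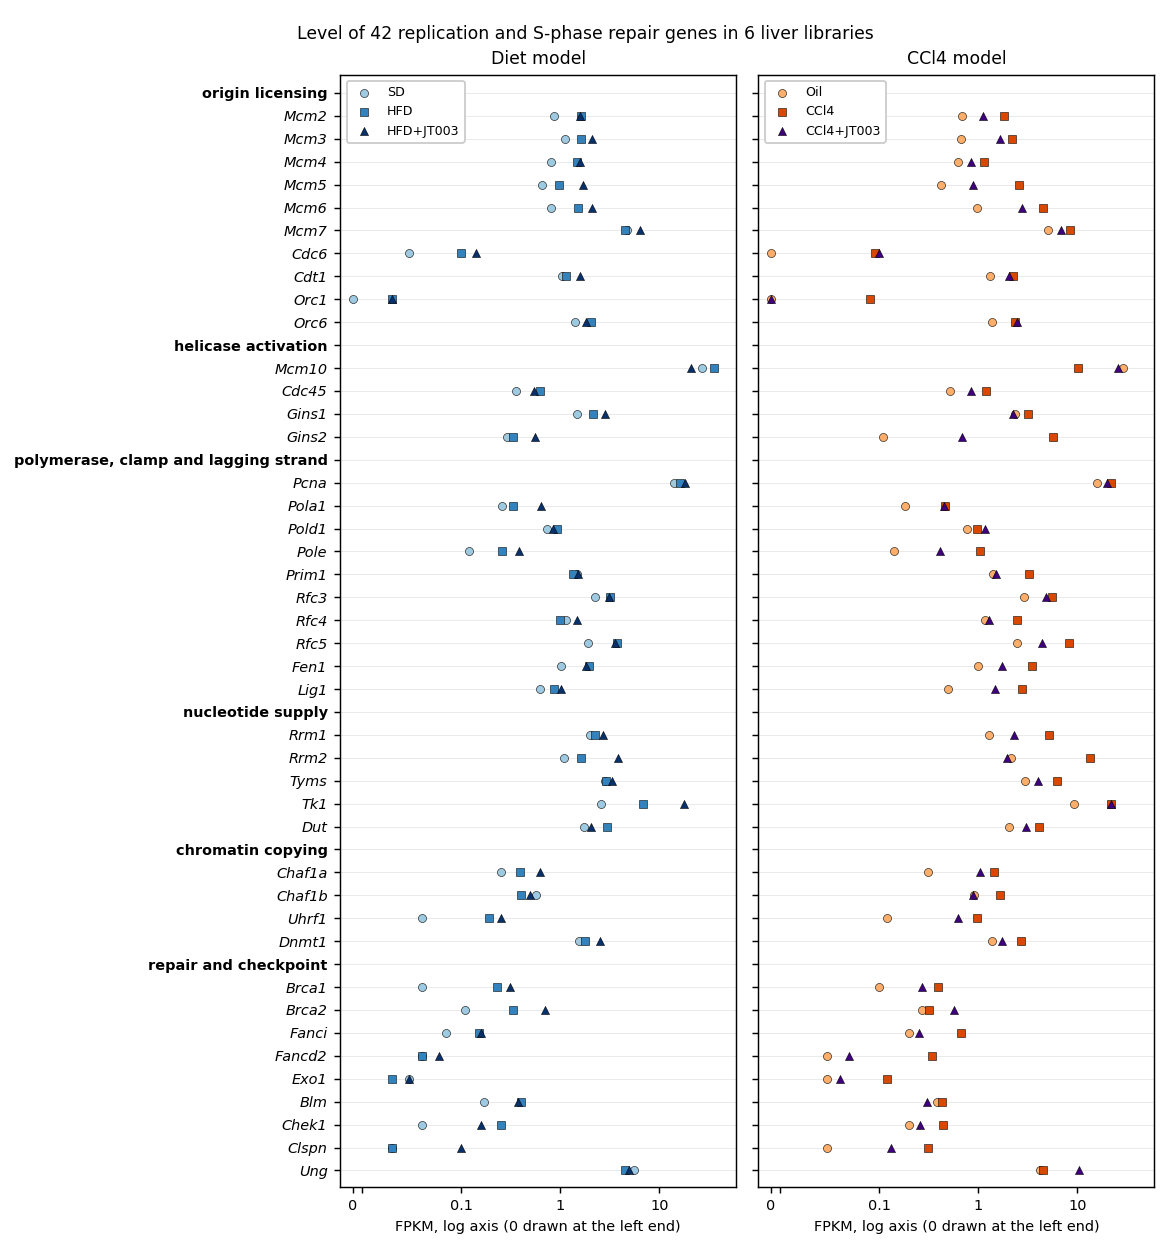
FPKM on a log axis of each of the 42 genes (rows, by role) in the diet model (left) and the CCl4 model (right), 1 point per library. In the right panel the CCl4 square lies farthest right for most genes, with 34 of 42 at their highest of all 6 libraries, whereas Mcm10 lies leftmost in CCl4 at 10.13 FPKM. FPKM was not TMM-scaled.

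The first comparison asked how the genes stood in CCl4-injured liver against oil-injected liver. Of the 42, 18 were higher with CCl4, against 4.76% of all 17236 genes tested, and 1, Mcm10, was lower, against 2.41%. The median log2 ratio was 1.02, or 0.97 with genes at 0 set to their bound, while the median of all genes was 0.00. The ratio was above 0 for 38 of 42 genes, and for 50.4% of all genes. Scaled by total reads, which moved the median of all genes to 0.23, it was above 0 for 41, and Mcm10 was the exception. Summed without Mcm10, the 41 genes had 2664 counts in Oil and 6698 in CCl4, a log2 ratio of 1.04 (95% counting interval 0.98 to 1.11).

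Among the genes of origin licensing, 4 of 10 were higher, all of them subunits of the helicase ring. Mcm5 had 28 counts in Oil and 182 in CCl4, a log2 ratio of 2.34 (1.83 to 3.04). Mcm6 had 63 and 279 counts (log2 1.83, 1.46 to 2.28). These were followed by Mcm3 with 38 and 128 counts (1.42, 0.93 to 2.03) and Mcm2 with 45 and 124 counts (1.14, 0.67 to 1.70). The other subunits moved less than 2-fold, at log2 0.61 for Mcm4 and 0.50 for Mcm7, so the ring's subunits, which work as 1 complex, did not differ by a common ratio. Their levels also lay apart, from 0.42 FPKM for Mcm5 to 5.05 for Mcm7 in Oil and from 1.14 for Mcm4 to 8.42 for Mcm7 in CCl4. Of Mcm7's 50-base windows, 23.3% also occur in other genes of the GENCODE M21 annotation, mainly Gm5487, so its count is uncertain. The loader Cdt1 (log2 0.52, 0.05 to 1.03) and Orc6 (0.46, -0.09 to 1.05) were not called, nor was Cdc6, at 0 counts in Oil and 8 in CCl4.

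Helicase activation held both extremes. Gins2, a GINS subunit, had 2 counts in Oil and 121 in CCl4, a log2 ratio of 4.73 (3.75 to 8.69), the highest of the 42. Of its 50-base windows, 65.4% are shared with Gse1 in the annotation, so part of its count may belong to that gene. The partner subunit Gins1 had 49 and 69 counts (log2 0.20, -0.34 to 0.76) and Cdc45 22 and 47 (0.76, 0.05 to 1.61), and neither was called. Mcm10, which helps start the assembled helicase, had 1985 counts in Oil and 725 in CCl4, a log2 ratio of -1.74 (-1.87 to -1.62).

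For the polymerase, clamp and lagging-strand genes, 4 of 10 were higher. Pole, the catalytic subunit of the leading-strand polymerase, had 20 counts in Oil and 153 in CCl4 (log2 2.54, 1.97 to 3.40). The nick-sealing ligase Lig1 had 30 and 174 counts (2.18, 1.68 to 2.86), and the flap nuclease Fen1 had 42 and 157 (1.57, 1.11 to 2.14). Fen1 shares 76.7% of its windows with other genes, chiefly the Gm10143 locus. Rfc5, of the complex that loads the clamp, had 84 and 290 counts (1.48, 1.14 to 1.87), whereas its companions Rfc3 (0.70) and Rfc4 (0.77) were not called. The primase subunit Prim1 (0.95, 0.44 to 1.53) and the catalytic subunit of the primer polymerase, Pola1 (1.04, 0.32 to 1.95), also missed the call. Pold1, the catalytic subunit of the lagging-strand polymerase, had 52 and 68 counts (0.10, -0.44 to 0.65), and Pcna had 384 and 554 (0.24, 0.05 to 0.43).

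Of the roles, nucleotide supply had the highest summed count in CCl4, with 758 counts in Oil and 2298 in CCl4. Rrm2, the regulated small subunit of ribonucleotide reductase, had 93 counts in Oil and 601 in CCl4 (log2 2.38, 2.09 to 2.73). Its large-subunit partner Rrm1 had 101 and 417 (1.74, 1.44 to 2.09). Tk1, the cytosolic thymidine kinase of the salvage route, had 250 and 613 counts, with a log2 ratio of 1.00 (0.79 to 1.22) that lay at the limit of the call. The call of Tk1 was lost with the size factors of DESeq2, at 0.99. Tyms, which makes thymidylate, had 224 and 477 counts (0.80, 0.57 to 1.04), and Dut, which removes dUTP, had 90 and 190 (0.78, 0.42 to 1.17). Neither reached 2-fold.

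Of the 4 genes that rebuild chromatin behind the fork, 2 were higher. Uhrf1, which recruits the maintenance methyltransferase to newly copied DNA, had 8 counts in Oil and 67 in CCl4 (log2 2.53, 1.72 to 4.05), and Dnmt1, that methyltransferase, had 145 and 290 (0.70, 0.42 to 1.01). Chaf1a, the large subunit of the histone chaperone CAF-1, had 20 and 96 counts (1.88, 1.27 to 2.75), with 49.7% of its windows shared, mostly with Ubxn6. Its partner Chaf1b had 34 and 64 (0.60, 0.00 to 1.27).

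Among the 9 repair and checkpoint genes, 4 were higher, all from low counts. Fancd2 and Fanci, the pair that is ubiquitinated at interstrand crosslinks, had 3 and 33 counts (log2 2.59, 1.50 to 5.52) and 18 and 63 counts (1.43, 0.74 to 2.36). Clspn, the adaptor through which ATR activates Chek1, had 3 and 32 counts (2.54, 1.45 to 5.48). Brca1 had 13 and 53 counts (1.61, 0.84 to 2.74), while Brca2, which acts in homologous recombination, had 59 and 72 (0.00, -0.52 to 0.52). The checkpoint kinase Chek1 (0.83), the nuclease Exo1 (1.37, from 3 and 13 counts), the helicase Blm (-0.05) and the uracil glycosylase Ung (-0.12) were not called.

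The second comparison asked how the genes stood when JT003 was given during CCl4. Of the 42, 9 were lower in CCl4+JT003 than in CCl4, against 2.50% of the 17393 genes tested, and 2 were higher, against 1.91%. The median log2 ratio was -0.68 and that of all genes was 0.00, and 36 of 42 genes lay below 0. The genes lower were Rrm2, Gins2, Fancd2, Mcm5, Fanci, Pole, Rrm1, Prim1 and Fen1. This comparison and the one before it share the CCl4 library, so a count that was by chance high there would appear in both.

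Rrm2 had 601 counts in CCl4 and 84 in CCl4+JT003, a log2 ratio of -2.82 (-3.20 to -2.52), and its 93 counts in Oil differed from the treated library by log2 -0.44 (-0.89 to 0.00). Gins2 went from 121 to 14 counts (-2.95, -4.04 to -2.32), and Fancd2 from 33 to 5 (-2.33, -4.45 to -1.37). Mcm5 had 182 and 59 counts (-1.60, -2.08 to -1.20), and Pole 153 and 58 (-1.38, -1.87 to -0.97). In each of these genes the treated library lay closer to Oil than to CCl4.
Fanci had 63 and 22 counts (-1.45), Rrm1 417 and 179 (-1.22), Prim1 101 and 45 (-1.14), and Fen1 157 and 73 (-1.09).

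Of the 18 genes that were higher with CCl4, these 8 (the 9 without Prim1) were lower with JT003, and none of the 8 was called against Oil. The other 10 were not called with JT003, and 4 of them, Mcm6, Chaf1a, Lig1 and Uhrf1, were still higher than in Oil. Uhrf1 had 8 counts in Oil, 67 in CCl4 and 42 in CCl4+JT003, the last at log2 1.88 (0.98 to 3.40) over Oil. Lig1 had 30, 174 and 91 counts (1.25, 0.69 to 1.95), Chaf1a 20, 96 and 67 (1.37, 0.71 to 2.24), and Mcm6 63, 279 and 174 (1.14, 0.74 to 1.61). Over all genes, 3.22% were higher and 1.72% lower in CCl4+JT003 than in Oil. For the 41 members with reads the median was 0.40 against 0.03 for all genes, with 4 higher and 0 lower. Scaled by total reads, 9 were higher, beside 1065 of all 17340 genes, and the median of all genes then stood at 0.32.

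Tk1, with 613 and 576 counts (log2 -0.10, -0.27 to 0.07), and Pcna, with 554 and 485 (-0.20, -0.38 to -0.02), were not called. The 2 genes that were higher were Mcm10 and Ung. Mcm10 had 725 counts in CCl4 and 1763 in CCl4+JT003 (1.27, 1.15 to 1.40). Ung, which cuts uracil out of DNA, had 156 counts in Oil, 175 in CCl4 and 386 in CCl4+JT003, the last at 1.12 (0.87 to 1.40) over CCl4 and 1.00 (0.74 to 1.29) over Oil. Brca2 had 59, 72 and 123 counts, and its ratio to CCl4 of 0.75 (0.33 to 1.20) was not called. Summed by role, counts changed with JT003 by log2 -0.55 in licensing, -0.58 in the polymerase and lagging-strand genes, -0.87 in nucleotide supply and -0.69 in chromatin copying, and by 0.30 in repair, where Ung made up 386 of 633 counts. Helicase activation, whose sum is mostly Mcm10, changed by 0.94 (0.82 to 1.05), from 962 to 1853 counts. Across all 6 comparisons 19 of the 42 genes were never called, among them Mcm4, Mcm7, Cdt1, Pcna, Tyms and Dnmt1. The same count over all genes was not made. In none of the 6 comparisons were more than 4.76% of all genes called higher or more than 2.76% lower.

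**Figure D3:**
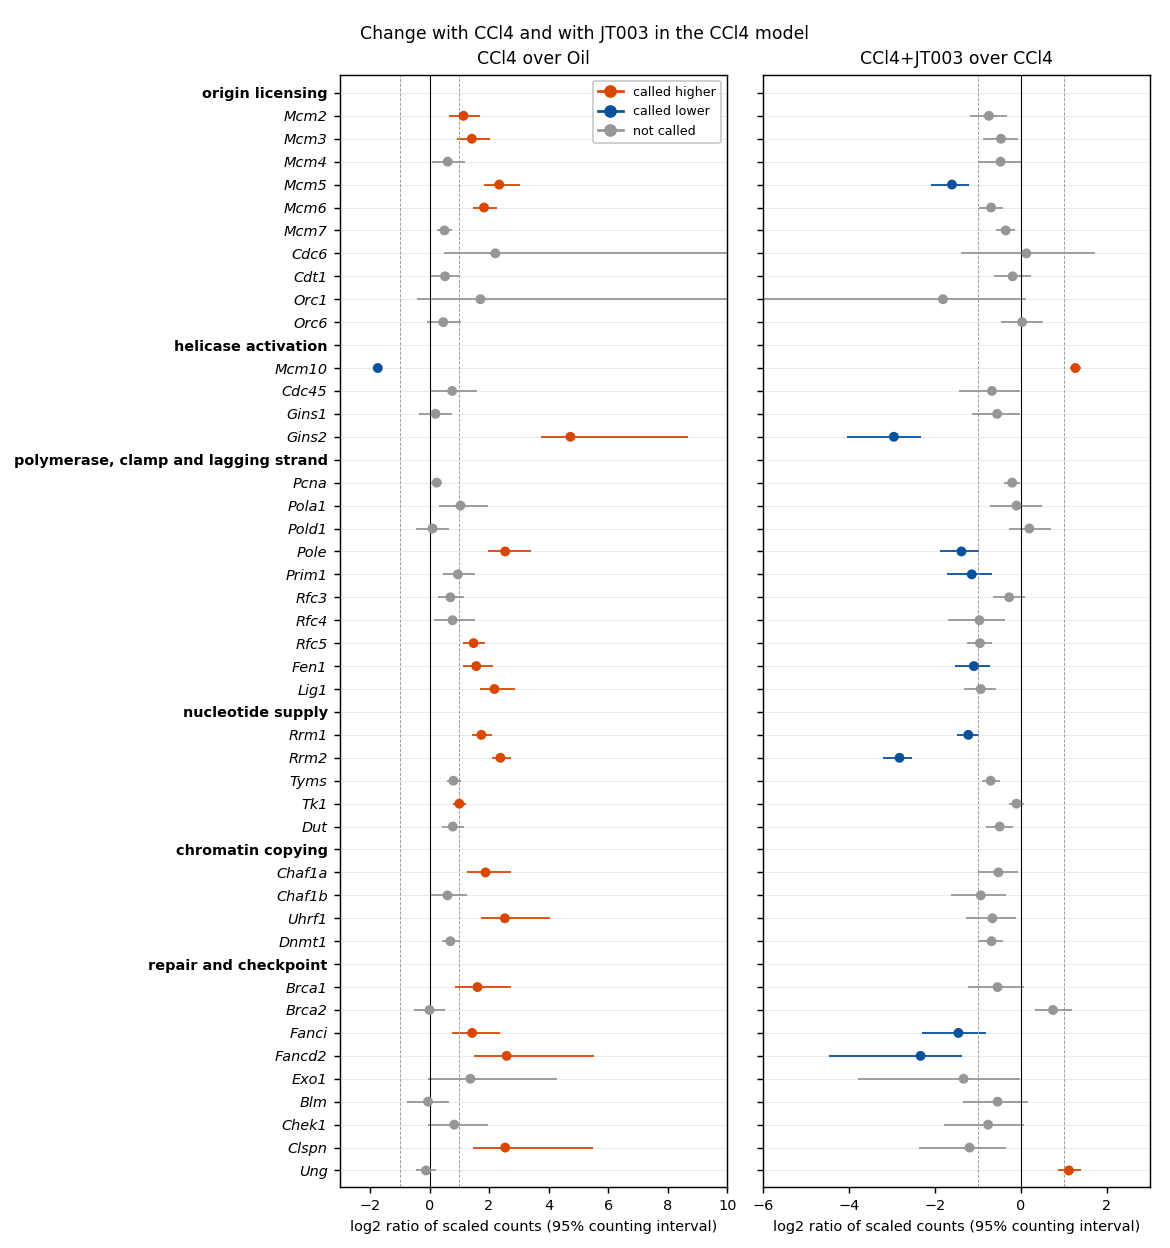
Log2 ratio of scaled counts (horizontal axis) with its 95% counting interval for each gene (rows, by role), CCl4 over Oil at left and CCl4+JT003 over CCl4 at right, dashed lines at 2-fold. At left 18 genes were called higher and Mcm10 lower, at right 9 were called lower, with Mcm10 and Ung higher, and intervals of Cdc6 and Orc1, with 0 counts in a library, run off the axis.

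The calls depended on the assumption of counting error alone. When edgeR's exact test was given a coefficient of variation of 0.2 between animals, 6 genes were called with CCl4 (Mcm5, Gins2, Pole, Rrm2, Lig1 and Uhrf1) and 2 with JT003 (Gins2 and Rrm2), and with 0.4 none was called in either comparison. Over all genes the setting of 0.2 called 2.01% with CCl4 and 0.949% with JT003, and that of 0.4 called 0.342% and 0%.

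Markers of other liver cells also differed between the CCl4 libraries. Of 8 macrophage markers 7 were higher with CCl4, with a summed level of 58.7 scaled CPM in Oil, 139 in CCl4 and 163 in CCl4+JT003, and 0 were called with JT003. Of 8 stellate cell and myofibroblast markers 3 were higher with CCl4 and 4 lower with JT003, with sums of 91.7, 369 and 179. Of 6 bile duct markers 4 were higher with CCl4 and 1 lower with JT003, with sums of 49.8, 158 and 146. Of 6 endothelial markers 1 was lower with CCl4 (117, 67.5 and 102), and of 7 erythroid markers 3 were lower (570, 312 and 314). T and NK cell markers summed to 3.96, 1.58 and 3.36, neutrophil markers to 5.31, 7.4 and 8.81, and B and plasma cell markers to 296, 312 and 250, with 0 called in any of the 3 lists. Cd3e, of the T cell receptor complex, was at 0 counts in CCl4, and Camp, a neutrophil granule protein, was at 0 in Oil. Of 8 hepatocyte markers 1 was lower with CCl4 and 0 were called with JT003. The part of these cell types in the levels of the 42 genes was not tested.

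A further table of the authors holds a CCl4 column of expected counts that sums to 2.97 times the CCl4 library and falls below it in only 24 genes, by at most 0.99 counts. The column therefore appears to pool the CCl4 library with other CCl4 reads, whose libraries the table does not name. After the counts of the CCl4 library were taken out, the remainder was set against each library. Against the CCl4 library, 0 of 42 genes were called in either direction (all genes, 1.44% higher and 0.229% lower), with ratios from -0.72 for Tk1 to 0.77 for Brca1 and a median of -0.06. Rrm2 stood at 618 counts in the remainder scaled to the CCl4 library, against 601 in that library itself. Mcm10 stood at 606 against 725, and Gins2 at 81.1 against 121.

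Against Oil, 19 genes were higher in the remainder (7.12% of all genes) and Mcm10 was lower (2.63%), with a median of 1.14. CCl4+JT003 against the remainder gave 9 genes lower (3.33%) and Mcm10 higher (1.31%), with a median of -0.68. Of the 9 genes lower against the CCl4 library, 7 were lower against the remainder too. Pole (-0.72) and Rrm1 (-0.87) were not, and Mcm6 (-1.07) and Brca1 (-1.31) took their place. The choice of CCl4 reads also ended the calls of Tk1 and Fanci with CCl4 and of Ung with JT003. Fanci stood at log2 1.17 (0.49 to 2.02) over Oil in the remainder. Mcm4 (1.09), Pola1 (1.17) and Cdc6 (3.42, from 0 and 28 counts) were called higher over Oil in the remainder and not in the CCl4 library. Tk1 stood at 373 in the scaled remainder, which put it at log2 0.27 over Oil, and Ung stood at 250, which put CCl4+JT003 at 0.63 over the remainder, short of the call.

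The diet model asked the same of high-fat feeding and of JT003 given with it. In HFD 3 of 42 genes were higher than in SD, against 2.92% of 16973 genes, and 0 were lower, against 2.47%. The median log2 ratio was 0.41, with 33 genes above 0 and a range from -0.58 for Chaf1b to 1.97 for Brca1, and the median of all genes was 0.00. Tk1 had 72 counts in SD and 184 in HFD (1.24, 0.86 to 1.68), Brca2 24 and 73 (1.44, 0.83 to 2.24), and Brca1 6 and 31 (1.97, 1.00 to 3.83). None of the subunits of the helicase ring was called, and Mcm6 came closest at 0.82 (0.34 to 1.38).

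In HFD+JT003 3 genes were higher than in HFD, against 0.743% of 17094 genes, and 0 were lower, against 0.883%. The median was 0.30, with a range from -0.78 for Mcm10 to 1.57 for Clspn, and that of all genes was -0.01. Tk1 had 486 counts in HFD+JT003 (1.37, 1.13 to 1.63, over HFD), Rrm2 had 71 in HFD and 168 in HFD+JT003 (1.20, 0.81 to 1.64), and Brca2 had 154 in HFD+JT003 (1.03, 0.64 to 1.48). With SD taken as the reference, 8 genes were higher in HFD+JT003 (all genes, 3.16%) and 0 lower (2.76%), with a median of 0.68. These were Tk1 at 2.61 (2.28 to 3.02), Brca2 at 2.48 (1.94 to 3.25), Brca1 at 2.36 (1.45 to 4.22), Rrm2 at 1.63 (1.20 to 2.15), Pole at 1.48, Mcm6 at 1.24, Mcm5 at 1.23 and Pola1 at 1.13. For Tk1, Rrm2 and Brca2 counts thus stood lowest in SD and highest in HFD+JT003 among the diet libraries. Their SD counts of 72, 49 and 24 also lay below those in Oil, the control of the CCl4 model, at 250, 93 and 59. For Tk1 and Rrm2, but not Brca2, the Oil count exceeded that in HFD. The controls were not tested against each other. The 3 comparisons share their libraries in pairs. Under edgeR's exact test at the coefficient of variation of 0.2, Tk1 and Brca2 were still called in HFD+JT003 over SD, and 0 genes in HFD over SD or in HFD+JT003 over HFD, beside 1.19%, 1.05% and 0.111% of all genes.

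Marker sums in SD, HFD and HFD+JT003 differed as well. Stellate cell and myofibroblast markers summed to 71.4, 205 and 102 scaled CPM, with 4 of 8 higher with HFD and 3 lower with JT003. Erythroid markers summed to 471, 305 and 339, with 3 of 7 lower with HFD, and B and plasma cell markers to 342, 163 and 169, with 1 of 7 lower. Macrophage markers (213, 209 and 282) and endothelial markers (212, 209 and 240) each had 1 gene higher with HFD, and bile duct markers (28.5, 40.2 and 26.3) had 1 higher with JT003. Neutrophil markers stood at 4.21, 8.15 and 9.05 and T and NK cell markers at 4.84, 5.09 and 5.64, with 0 called in either comparison. Cftr, of the bile duct list, was at 0 in the 3 libraries, and Mpo and Ltf, of the neutrophil list, were at 0 in SD. Of the hepatocyte markers 1 was lower with HFD. Their part in the levels of the 42 genes was not tested.

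Rrm2 was the one gene that JT003 comparisons called in opposite directions, higher in HFD+JT003 than in HFD and lower in CCl4+JT003 than in CCl4. Its 168 counts in HFD+JT003 and 601 in CCl4 were the highest of their models. Whether the 2 effects differ beyond the spread between mice was not tested.

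Mcm10 went against most of the other genes in the CCl4 model, and in HFD over SD it lay on their side, at log2 0.28 (0.19 to 0.36). It had 1938 counts in SD, 2502 in HFD, 1480 in HFD+JT003, 1985 in Oil, 725 in CCl4 and 1763 in CCl4+JT003. That is 27.06, 35.71, 21.03, 28.74, 10.13 and 25.60 FPKM, so it was the highest of the 42 in every library but CCl4, where Tk1 (22.01), Pcna (22.00) and Rrm2 (13.50) passed it. It held 44.1% of the counts of the 42 genes in SD and 9.77% in CCl4. Because of this gene, the sum of all 42 rose by only 0.39 on the log2 scale with CCl4, and the sum of the other 41 by 1.04. No 50-base window of its annotated transcripts occurs in another gene of GENCODE M21. Its ratio of HFD+JT003 to HFD was -0.78 (-0.87 to -0.69), below 2-fold and not called.

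**Figure D4:**
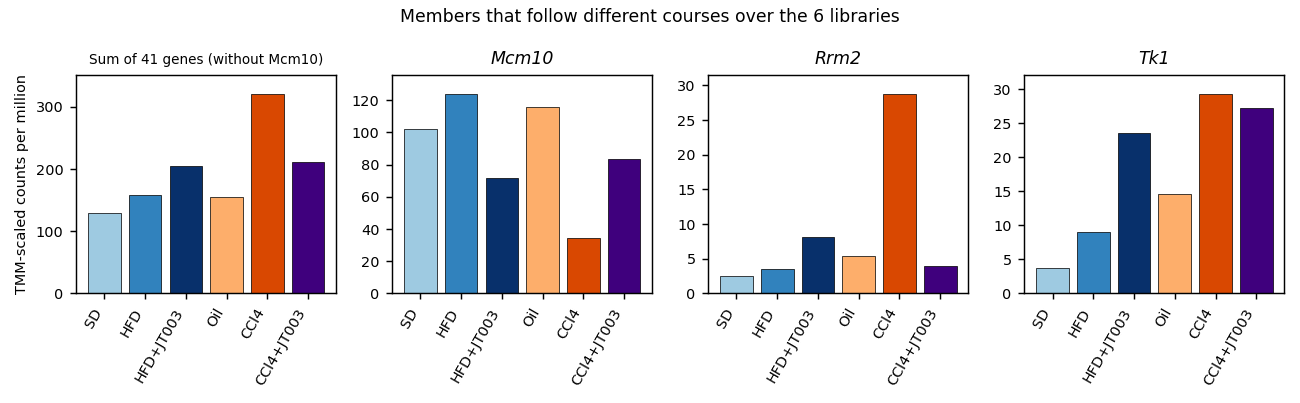
CPM after TMM scaling (vertical axes, each starting at 0 and with its own scale) in the 6 libraries, for the sum of 41 genes without Mcm10, and for Mcm10, Rrm2 and Tk1. The sum was highest in CCl4 at 320 and lowest in SD at 129, Mcm10 was lowest in CCl4, Rrm2 was highest in CCl4, and Tk1 was high in HFD+JT003, CCl4 and CCl4+JT003.

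Other lists of cell cycle genes were set beside the 42. Of 45 further replication and fork genes, 7 were higher with CCl4 and 0 lower, with a median of 0.30, and 3 were then lower with JT003. They included Dbf4, the activator of the Cdc7 kinase that fires origins, with 24 counts in Oil, 275 in CCl4 and 102 in CCl4+JT003, and Chtf18, of an alternative clamp loader, with 4, 55 and 10. Of 36 further S-phase repair genes, 7 were higher with CCl4 (median 0.28), and with JT003 4 were lower and 1 higher. Fanca, of the Fanconi core complex, had 6 counts in Oil, 78 in CCl4 and 8 in CCl4+JT003. The 1 gene higher with JT003 was Wee1, a kinase that restrains Cdk1, with 108 counts in CCl4 and 317 in CCl4+JT003. Of 15 further nucleotide genes only Dck, deoxycytidine kinase, was higher with CCl4, at 47 and 138 counts, and it was lower with JT003, at 59. The share called higher with CCl4 was thus 4.76% for all genes, 42.9% for the 42 genes, 15.6% for the further replication genes, 19.4% for the further repair genes and 6.67% for the further nucleotide genes. The 42 were chosen with earlier results of these data known, so this order describes the choice of lists as well as the livers.

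E2F and pocket proteins, the known regulators of this group, had 5 of 19 genes higher with CCl4 (median 0.02), and 3 lower with JT003. Foxm1, a factor of the G2 programme, had 7 counts in Oil, 319 in CCl4 and 33 in CCl4+JT003. Rbl1, the pocket protein p107, had 16, 69 and 30. E2f2 had 60 counts in CCl4 and 20 in CCl4+JT003. Of 15 genes listed as G1 genes 4 were higher with CCl4, among them Ccnd1 (cyclin D1) and Ccna2 (cyclin A2). With JT003 2 were lower, Ccna2 and Cdkn1a, the inhibitor p21. Ccnd1 had 300 counts in Oil, 3866 in CCl4 and 2448 in CCl4+JT003. Ccna2 had 17, 563 and 67, and its log2 ratios of 4.62 and -3.04 lay within the ranges of the mitosis genes below. Cdkn1a had 1050, 3208 and 783. Of 15 targets of p53, a list that shares Cdkn1a with the G1 genes, 4 were higher with CCl4, among them Eda2r with 3 and 98 counts and Phlda3 with 25 and 224, and 1, Cdkn1a, was lower with JT003.

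Genes of mitosis showed larger ratios than the replication genes. All 22 were higher with CCl4 (all genes, 4.76%) and all 22 lower with JT003 (2.50%). The medians were 4.47 and -3.23, against 1.02 and -0.68 for the 42 genes. The mitosis list, like the 42, was chosen with earlier results of these data known. Cdc20, the activator of the anaphase-promoting complex, had 17 counts in Oil, 1229 in CCl4 and 35 in CCl4+JT003, and Ccnb1 (cyclin B1) had 10, 632 and 20. Summed, the mitosis genes had 335, 9251 and 851 counts, whereas the 42 genes without Mcm10 had 2664, 6698 and 4443. The lowest mitosis ratio with CCl4 was 2.67, which of the 42 genes only Gins2 exceeded. In the diet model no mitosis gene was called with HFD or with JT003 over HFD. Reads were few there, as the whole list of 22 summed to 239 in the SD library. The sum nevertheless differed by log2 0.69 (0.45 to 0.92) for HFD over SD, with 17 of 22 genes above 0. It differed by 0.17 (-0.03 to 0.36) for HFD+JT003 over HFD. With SD as the reference, HFD+JT003 stood at 0.86 (0.63 to 1.09), with 21 of 22 above 0. Top2a, at 1.40 (0.66 to 2.41), was the 1 gene called in that comparison.

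**Figure D5:**
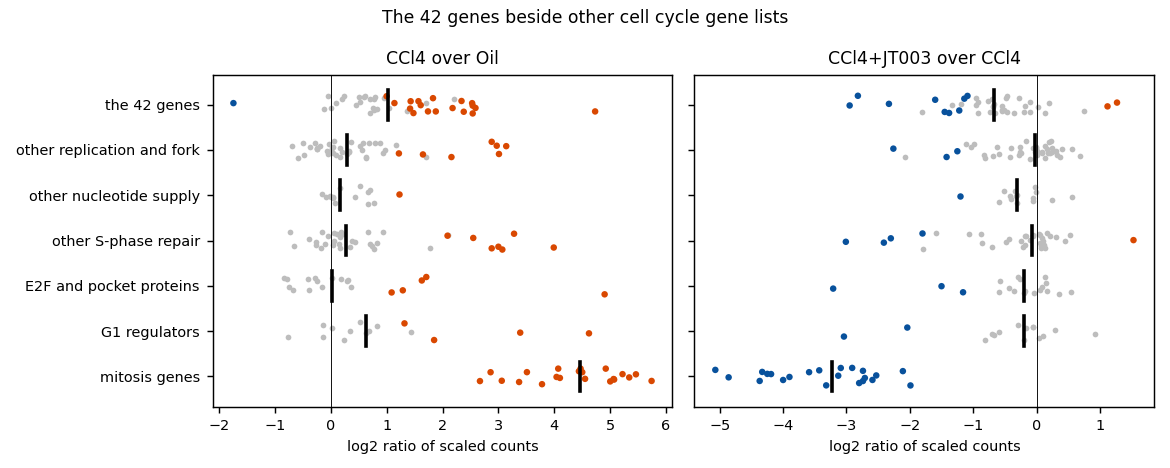
Log2 ratio of each gene (points) in 7 gene lists (rows), CCl4 over Oil at left and CCl4+JT003 over CCl4 at right, with called genes in orange (higher) or blue (lower), others grey, and a black bar at each median. The 22 mitosis genes lie from 2.67 to 5.74 at left, beyond nearly all of the 42 genes.

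The E2F words were set against the change with CCl4. Among 20 of the 42 genes with an E2F word in a promoter, 8 were higher with CCl4 and the median log2 ratio was 1.23. Among 16 genes with a promoter in the table and no such word, 7 were higher and the median was 0.79. The genes printed above lie on both sides, with Rrm2 at 2.38 without a word and Mcm5, Mcm6, Rrm1 and Uhrf1 at 2.34, 1.83, 1.74 and 2.53 with one. Of genes with a word, Pold1 (0.10), Cdt1 (0.52) and Brca2 (0.00) were among those not called.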

How the data were processed

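Liver RNA of 6 conditions was measured in 6 libraries, grouped by the submitters' labels. The processing notes name HISAT, Bowtie2, RSEM and the build mm9, without versions. For each library the authors deposited an expected count per gene, the RSEM estimate of its reads without normalization, and an FPKM value, which the authors scaled to transcript length and library depth. An expected count splits reads that several genes share, so genes with near-identical copies are uncertain. Of 4 comparison tables, 3 hold the authors' own fold changes and p-values with the FPKM repeated and were not used, and of the fourth only a pooled CCl4 expected count column was used.

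Expected counts were rounded. Within each model of 3 libraries, sizes were adjusted by TMM (edgeR 4.0.16 under R 4.3.3), with factors of 0.884 to 1.089. The reads of a gene in a pair of libraries were compared by an exact conditional binomial test, two-sided (scipy 1.17.1, Python 3.11.15), and p was adjusted by Benjamini-Hochberg over every gene that had a read. Calls needed an adjusted p under 0.001 and a 2-fold ratio, where 2 counts were added as a prior. Intervals are 95% Clopper-Pearson and cover counting error only. The procedure was tested on simulated counts that held counting error only, so the spread between mice was not part of that test. Role sums used rounded counts, and shared 50-base windows were read from GENCODE M21 transcripts, whose annotation is not that of the files. Plots used matplotlib 3.10.9. Alternatives were total reads, DESeq2 1.42.0 size factors, at least 10 counts, either criterion alone, a prior count of 0.5, FPKM plus 1 or 0.1, edgeR's exact test at a set coefficient of variation of 0.2 or 0.4, and the pooled CCl4 counts with and without the CCl4 library. Genes of the other lists were named when called, as the 3 largest rises and falls where the higher library had 20 counts or more, and 1 gene under this rule is not reported here. The 42 members, the lists and the tests were chosen with earlier results of these data known.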

Additional observations from a re-analysis of the deposited data

Results flagged for a closer look

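JT003 was called in opposite directions for Rrm2 in the 2 models. The log2 ratio was 1.20 in HFD+JT003 over HFD and -2.82 in CCl4+JT003 over CCl4, each from 1 library per condition, and the difference between them was not tested.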

How the results depend on the processing

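No paired analysis was possible because each condition had 1 library, and for the same reason no library could be left out. No result reversed. Counts of called genes stayed within 1.5 times with DESeq2 size factors, at least 10 counts, a prior count of 0.5 and the pooled CCl4 counts. Counts below are given in the order CCl4 over Oil, CCl4+JT003 over CCl4, CCl4+JT003 over Oil, HFD over SD, HFD+JT003 over HFD and HFD+JT003 over SD, where the values reported were 19, 11, 4, 3, 3 and 8. With FPKM plus 1 they were 10, 4, 2, 1, 1 and 2, beside 4.93%, 2.84%, 3.41%, 3.71%, 1.42% and 3.92% of all genes. Under edgeR's exact test at a coefficient of variation of 0.2 they were 6, 2, 0, 0, 0 and 2, beside 2.01%, 0.949%, 0.796%, 1.05%, 0.111% and 1.19% of all genes, and with 0.4 they were 0 in all 6, beside 0.342%, 0%, 0.138%, 0.0648%, 0% and 0.0294%, so most calls rest on the assumption of counting error alone. FPKM plus 0.1 gave 10 in CCl4+JT003 over Oil (12.2% of all genes) and 5 in HFD over SD (9.6%). The adjusted p alone gave 7 in CCl4+JT003 over Oil (20.5%), 5 in HFD over SD (23.4%) and 5 in HFD+JT003 over HFD (14.2%). The log2 ratio alone gave 9 in CCl4+JT003 over Oil (13%), 7 in HFD over SD (11.8%) and 13 in HFD+JT003 over SD (12.7%). Total reads gave 9 in CCl4+JT003 over Oil (7.16%). Apart from these constructions, the cause was not tested. Cdc6, Exo1 and Orc1, with 13 counts or fewer in any library, had too few reads for a 2-fold difference between libraries to be decided. In the larger remainder of the pooled CCl4 counts Cdc6 had 28 counts and was called higher than Oil, and Exo1 and Orc1 were not called.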
